A study of Homo sapiens with 11 samples.

Results

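Chromatin immunoprecipitation and sequencing (ChIP-seq) with an antibody named MINA gave 16353 enriched intervals in wild-type MDA-MB-231 cells, and 1483 of them form the set described here. These intervals overlapped an H3K36me3 interval of the same wild-type (WT) cells, and neither a WT H3K4me3 interval nor any interval that the MINA antibody gave in cells lacking mdig (KO). They were chosen by these overlaps of 1 bp or more among the interval lists of MINA WT, MINA KO, H3K4me3 WT and H3K36me3 WT on chromosomes 1 to 22 and X, so their loss in KO, their H3K36me3 in WT and their lack of H3K4me3 in WT describe the choice and are no results. They are called H3K36me3-side intervals below. They made up 9.07% of the WT MINA intervals and 14.8% of those found in WT only, and the 10 lists of the series hold 229591 intervals in all.

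MDA-MB-231 is an established triple-negative breast cancer line. Per the labels the WT cells had normal mdig protein, the KO cells made none, and both came out of CRISPR-Cas9 work and grew in medium with blasticidin. Whether the KO cells are 1 clone or a pool is not given in the sources used here, and neither is any replicate. Besides MINA, antibodies to H3K36me3, H3K4me3, H4K20me3 and H3K9me3 were used, so that 5 antibodies gave 1 WT and 1 KO list each, and the input library was not used here. The files hold positions of intervals with no height, score or p-value and no read depth, so depth is unknown. With 1 library per antibody and genotype no difference was tested. The 95% Wilson confidence intervals given with shares, and the Newcombe intervals made from them for differences, cover counting error over intervals only, and intervals of 1 library are not replicates of a condition.

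Mdig, also called MINA53 or RIOX2, is an oxygenase with a JmjC domain that hydroxylates a histidine of a ribosomal protein and has been linked to histone methylation. H3K36me3 is laid down behind elongating RNA polymerase II, covers the bodies of transcribed genes and usually grows towards their far ends, while H3K4me3 sits at active start sites. H3K9me3 and H4K20me3 mark silent heterochromatin, and H4K20me3 is often, but not always, placed on chromatin that already carries H3K9me3. H3K36me3 without H3K4me3 is therefore the usual state of a transcribed gene body away from its promoter. No annotation of the build of these files (hg19) was used here, so no gene, exon or intron was assigned to an interval and no sequence is given.

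The H3K36me3-side intervals had a higher median width than the other sets of WT MINA intervals. Their median width was 6.6 kb (25th to 75th percentile 3.6 to 10.8 kb, range 0.4 to 58.2 kb) and they covered 12.1 Mb. The 6353 WT MINA intervals shared with KO had a median of 4.0 kb. The median was 4.6 kb for the 5753 WT-only intervals on WT H3K4me3 and 5.4 kb for the 2764 WT-only intervals on neither H3K4me3 nor H3K36me3. These 3 sets are the comparisons used below. The H3K36me3-side set thus had the highest median, but the shared set reached further, to 132.8 kb, and its 90th percentile of 19.2 kb was above the 15.8 kb of the H3K36me3-side intervals. A choice by overlap with H3K36me3 also favours wide intervals. Among intervals on KO H3K36me3 but on no KO H3K4me3 or heterochromatin list the median was 6.4 kb in the H3K36me3-side set. It was 7.4 kb for those on WT H3K4me3, 8.6 kb for the shared ones and 5.0 kb for those on neither mark.

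Most of these intervals lay well inside H3K36me3. Of the 1483, 1147 (77.3%) lay wholly under WT H3K36me3 and 1388 (93.6%) had at least 50% of their length there. The other 95 touched H3K36me3 with less than 50% of their length, and 5 of them by a single 200-bp window. Just inside the limit set by H3K36me3 lay an interval of 7.6 kb at chr1:155965801-155973400 and one of 4.8 kb at chrX:69642801-69647600, each with 0.2 kb of H3K36me3. The median distance to the nearest WT H3K4me3 interval was 10.8 kb (25th to 75th percentile 4.4 to 22.9 kb). It was at most 5 kb for 424 intervals, over 20 kb for 427 and over 100 kb for 17. On the near side, 13 intervals abutted H3K4me3 without overlap, the widest of 26.6 kb at chr19:16618601-16645200 and the next of 15.8 kb at chr11:73066801-73082600. Just outside, of the 2065 WT-only MINA intervals that carried both marks, 10 were left out by a single window of H3K4me3 and 39 by H3K4me3 over less than 10% of their length. The nearest KO MINA interval lay at a median of 30.0 kb and within 1 kb for 15 of the 1483. For the WT-only intervals on neither mark the median distances were larger, 16.4 kb to WT H3K4me3 and 62.2 kb to KO MINA. The H3K36me3-side intervals thus lay nearer to both lists than that set, and 90 (6.07%) lay within 1 kb of H3K4me3.

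The H3K36me3 under these intervals was nearly all found in KO as well. A KO H3K36me3 interval was present at 1414 of the 1483, or 95.3% (95% CI 94.2% to 96.3%), beside 49.1% of all WT MINA intervals. The KO list of H3K36me3 took no part in the choice, but the WT list of the same mark did, so the 2 are not independent. Among other WT MINA intervals that carried WT H3K36me3 the KO mark was found at 94.5% of 3805 shared with KO and 89.3% of 2065 WT-only intervals on H3K4me3, and over all 7353 the share was 93.2%. By length, WT H3K36me3 covered 10.8 Mb of these intervals and KO H3K36me3 10.6 Mb, a KO over WT ratio of 0.978. The set could only lose intervals, since each had to carry the WT mark, and the mirrored choice shows the other direction. Among the 4247 WT-only MINA intervals without WT H3K4me3, 1483 lay on WT H3K36me3 and 1559 on KO H3K36me3, with 1414 on both, 69 on WT only and 145 on KO only. Of those on KO H3K36me3 90.7% (89.2% to 92.0%) also lay on the WT mark. More of these intervals thus carried H3K36me3 in KO only than in WT only. Outside the chromosome stretches with a raised KO over WT ratio of H3K4me3, described further on, the counts were 68 in WT only and 123 in KO only. The excess was not particular to WT-only MINA intervals. Over all WT MINA intervals 497 carried H3K36me3 in WT only and 1168 in KO only. Among those shared with KO the counts were 208 and 644.

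**Figure D1:**
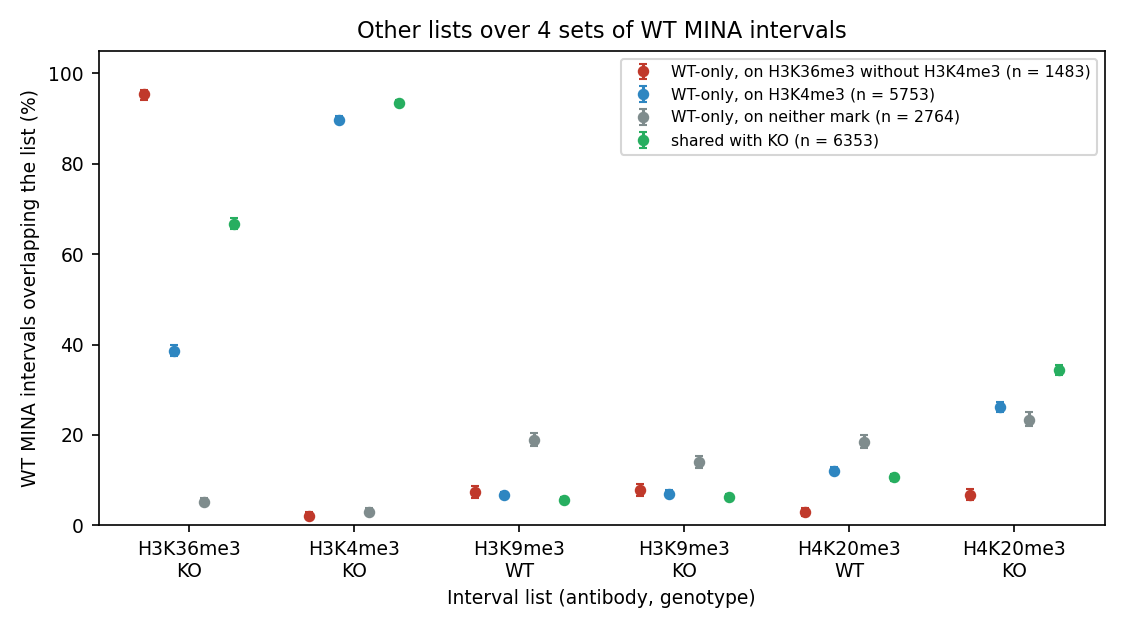
Share of WT MINA intervals (y axis, percent) overlapping each of the 6 lists that took no part in the choice (x axis), for the H3K36me3-side intervals and 3 comparison sets; points are shares and bars are 95% Wilson intervals. H3K36me3-side intervals lie at 95.3% for KO H3K36me3 and below 8% for each of the other 5 lists.

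The H3K36me3 domains that held these intervals were the wide ones. The 1483 intervals lay in 1143 of the 17507 WT H3K36me3 intervals (6.53%), called domains here, with 24 of them reaching over a pair of domains. Domains with such an interval had a median width of 30.2 kb (17.2 to 52.5 kb), the other domains one of 10.8 kb (6.0 to 21.4 kb). The share of domains that held one went up with width, from 1.08% of those under 5 kb and 5.02% of those of 10 to 20 kb to 21.6% of those of 50 to 100 kb and 35.5% (28.7% to 43.0%) of the 169 domains of 100 kb or more. A wider domain has more room for an interval, and the part of room in this rise was not tested. The share of domain length under these intervals went from 0.621% in domains under 5 kb to 3.60% at 20 to 50 kb and 6.17% at 100 kb or more. A single interval lay in 891 of the domains, and 252 held several. In the median domain 24.3% of the length lay under these intervals (11.1% to 44.4%).

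Domains with an H3K36me3-side interval were found in KO more often than the rest, and the gap was narrow or absent among wide domains. The KO list held 96.3% (95.1% to 97.3%) of the 1143, beside 84.7% (84.1% to 85.2%) of the 16364 without one and 85.5% of all 17507. Among domains of 20 to 50 kb the shares were 98.2% and 98.1%, and among those of 50 to 100 kb 99.6% and 99.9%. Narrower domains differed more. Under 5 kb the shares were 81.2% of 32 (64.7% to 91.1%) and 64.9% of 2936 (63.1% to 66.6%), and at 5 to 10 kb 82.9% of 82 (73.4% to 89.5%) and 77.6% of 4639 (76.3% to 78.7%). At 10 to 20 kb they were 94.8% of 231 (91.1% to 97.0%) and 91.7% of 4369 (90.8% to 92.5%). By length the KO list covered 94.3% of the domains with such an interval and 85.7% of the others. It covered more of the former in all 6 width classes, from 75.7% against 58.4% under 5 kb to 97.7% against 96.6% at 100 kb or more.

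The domains were not free of other MINA signal. WT H3K4me3 was present somewhere in 720 of the 1143 (63.0%), and 404 (35.3%) held a KO MINA interval. Among the domains without an H3K36me3-side interval these shares were 39.9% and 20%. At 20 to 50 kb WT H3K4me3 was present in 72.2% of the domains with such an interval and 57.3% of those without, and KO MINA in 40.2% and 33.0%. Of the 508 KO MINA intervals counted in these domains, 445 (87.6%) lay on WT H3K4me3. Over all chromosomes 94.0% of the 6353 WT MINA intervals shared with KO lay on it, so this was not particular to these domains. In 35.3% of the domains the antibody thus still gave a KO interval elsewhere in the domain. The absence of KO MINA from the H3K36me3-side intervals themselves is set by the choice. The flanks showed the same neighbourhood. At 10 kb outward from an edge 39.7% of positions lay under another WT MINA interval and 6.61% under a KO MINA interval, against 27.8% and 3.73% for WT-only intervals on neither mark. Over all chromosomes the KO list of MINA covered 0.298 of the WT length. The next WT MINA interval lay at a median gap of 3.6 kb and within 5 kb for 841 of the 1483 intervals (56.7%). Another interval of the same set lay within 5 kb for 438 (29.5%).

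**Figure D2:**
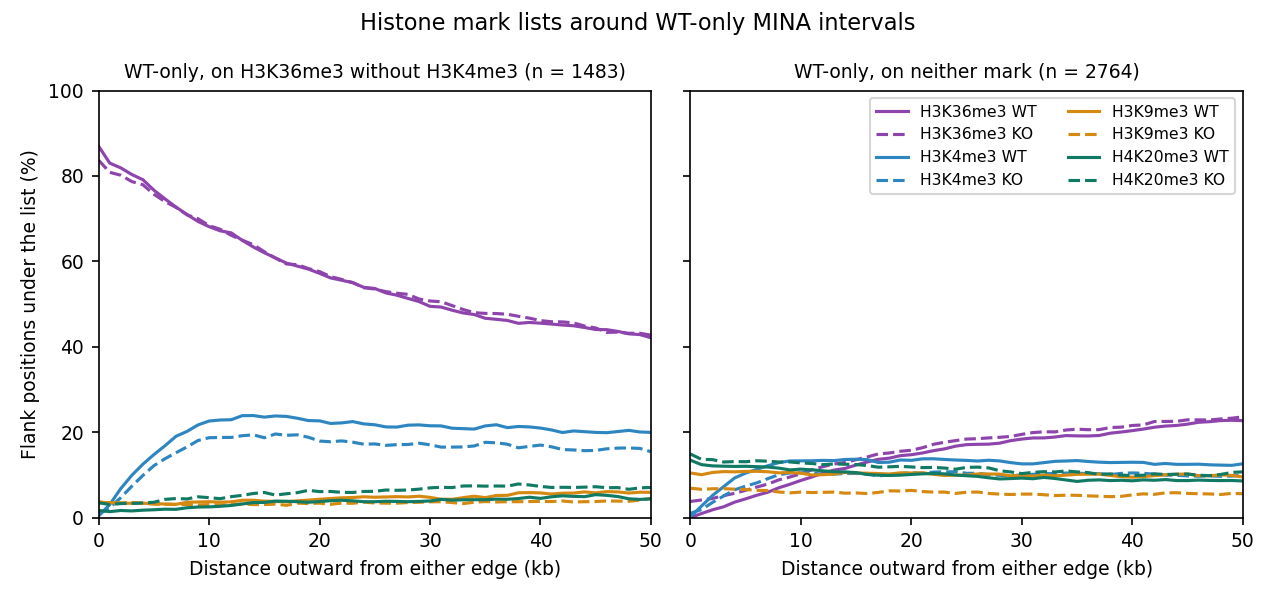
Percent of flank positions (y axis) under each histone mark list at a distance of 0 to 50 kb outward from both edges (x axis) for H3K36me3-side intervals (left) and WT-only MINA intervals on neither mark (right); solid lines are WT and dashed lines KO. On the left H3K36me3 falls from 87.0% to 42.1% in WT and from 83.7% to 42.8% in KO, and H3K4me3 climbs to 22.7% in WT at 10 kb.

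In those flanks the WT and KO lists of H3K36me3 ran side by side. H3K36me3 covered 87.0% of the positions next to an edge in WT and 83.7% in KO. At 20 kb it covered 57.2% and 57.6%. H3K4me3 covered 22.7% of positions at 10 kb in WT and 18.7% in KO, against 13.3% and 10.5% around the intervals on neither mark. Over all chromosomes the KO list of H3K4me3 covered 0.844 of the WT length.

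Within the domains the intervals leaned to the end away from H3K4me3. Of the 1029 domains of 10 kb or more with an H3K36me3-side interval, 530 had WT H3K4me3 within 5 kb of 1 end and none within 5 kb of the other, which gives them a direction without an annotation. Each was cut into 5 equal parts from the H3K4me3 end. Of the length free of H3K4me3, the H3K36me3-side intervals covered 12.6% in the part at the H3K4me3 end. They covered 20.2%, 26.2% and 35.6% in the next 3 parts and 36.8% in the part at the far end. In 361 of the 530 domains (68.1%) their mean place lay beyond that of the H3K4me3-free length. The median place was 69.6% of the way along, against 55.8% for the H3K4me3-free length. The choice itself moves the intervals away from the H3K4me3 end, because a MINA interval that reached H3K4me3 was left out whole. Setting them against the H3K4me3-free length does not correct for this. How much of the lean the choice makes was not tested. Over all 4200 domains with a direction, any WT MINA, whatever its overlap, covered 7.11% of the H3K4me3-free length in the part at the H3K4me3 end and 10.1% at the far end, a smaller lean of the same direction. KO MINA, whose whole list covered 0.298 of the WT MINA length, covered 1.00% and 1.34% of it. With distance counted from either end in place of a direction, in 5 steps, the intervals covered 25.5% of the H3K4me3-free length in the outermost step and 27.5% in the innermost.

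**Figure D3:**
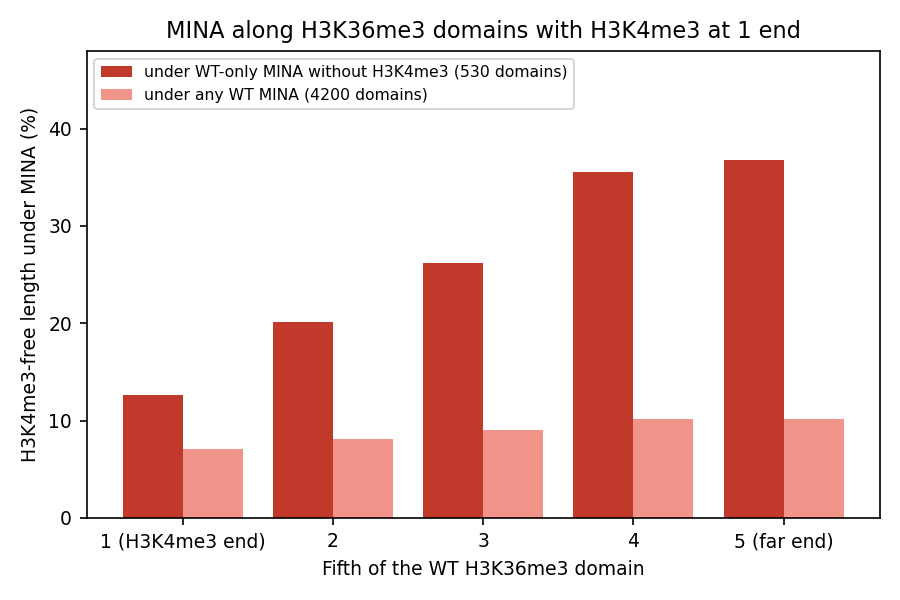
Percent of the H3K4me3-free length under MINA (y axis) in 5 equal parts of WT H3K36me3 domains counted from the end with H3K4me3 (x axis), for H3K36me3-side intervals in the 530 domains that hold one and for any WT MINA in all 4200 domains with a direction. The first kind of bar goes from 12.6% to 36.8% and the second from 7.11% to 10.1%.

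Heterochromatin marks were scarce on these intervals in both genotypes. WT H3K9me3 lay on 109 of them, or 7.35% (6.13% to 8.79%), beside 8.43% of all WT MINA intervals, and KO H3K9me3 on 115, or 7.75% (6.50% to 9.23%), beside 8.0%. WT H4K20me3 lay on 43, or 2.90% (2.16% to 3.88%), beside 11.8%, and KO H4K20me3 on 100, or 6.74% (5.58% to 8.13%), beside 27.1%. For H3K9me3 the share was therefore near that of all WT MINA intervals, and for H4K20me3 it was far below. No list of either mark in either genotype touched 1283 of the 1483 intervals (86.5%), beside 66.3% of all WT MINA intervals. KO H3K36me3 and none of the other 5 lists lay on 1205 (81.3%), beside 9.85% of all WT MINA intervals. This last gap is mostly set by the choice, for WT H3K36me3 and against WT H3K4me3.

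Against the WT-only intervals on neither mark the shares were lower for all 4 heterochromatin lists. Those intervals lack WT H3K36me3 by the choice and the H3K36me3-side intervals carry it, so the differences cannot be told apart from this contrast. The difference was -11.6 percentage points for WT H3K9me3 (-13.5 to -9.55) and -6.21 for KO H3K9me3 (-8.05 to -4.28). It was -15.5 for WT H4K20me3 (-17.2 to -13.8) and -16.7 for KO H4K20me3 (-18.7 to -14.6). Against the WT-only intervals on H3K4me3 the difference in H3K9me3 was 0.64 points in WT (-0.75 to 2.21) and 0.73 in KO (-0.70 to 2.33), which the counting error does not separate from 0. For H4K20me3 it was -9.22 in WT (-10.4 to -7.94) and -19.5 in KO (-21.1 to -17.7). The H3K36me3-side intervals were thus the set with the least H4K20me3 of the 4, while for H3K9me3 they lay below the intervals on neither mark only. Against the intervals shared with KO their H3K9me3 share was higher by 1.67 points in WT (0.309 to 3.21) and by 1.41 in KO (0.0088 to 2.99). The H4K20me3 order was also seen at like widths. At 5 to 10 kb, 2.77% of 506 H3K36me3-side intervals and 20.7% of 967 intervals on neither mark met WT H4K20me3, and 6.52% and 25.4% met KO H4K20me3. For KO H3K9me3 the order failed in the narrowest class, under 2 kb, with 8.46% and 8.12%.

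Measured by length and against H3K36me3 chromatin instead of other MINA intervals, the picture changed for H4K20me3 in KO. The H3K36me3 under these intervals comes to 10.8 Mb, and 263.4 Mb of WT H3K36me3 carried neither WT H3K4me3 nor MINA of either genotype. KO H4K20me3 covered 3.93% of the first and 1.46% of the second. In WT the values were 1.56% and 1.30%. H3K9me3 covered 2.99% and 2.39% in WT, and 3.15% and 2.09% in KO. KO H3K36me3 covered 94.9% and 85.7%. H3K36me3 chromatin under these MINA intervals was therefore richer in KO H4K20me3 than H3K36me3 chromatin without MINA, although poorer in it than other MINA intervals. The MINA-free part includes narrow domains, in which fewer positions were found in KO.

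From WT to KO, H3K9me3 stayed level over these intervals and H4K20me3 covered more. H3K9me3 was kept at 86 intervals, found in WT only at 23 and in KO only at 29, and its length went from 0.401 Mb to 0.427 Mb, a ratio of 1.07. H4K20me3 was kept at 30, found in WT only at 13 and in KO only at 70, and its length went from 0.199 Mb to 0.513 Mb, a ratio of 2.58. That ratio was 1.25 for the intervals on neither mark, 1.63 for those on H3K4me3 and 2.81 for those shared with KO, beside 2.23 for the whole lists. For H3K9me3 the ratios were 0.702, 0.968 and 1.15, beside 1.20. The H3K36me3-side intervals were thus near the whole list for H4K20me3, from a very low base. Both heterochromatin marks met at 19 intervals in WT (1.28%) and at 47 in KO (3.17%), beside 4.27% and 5.89% of all WT MINA intervals. Outside the raised stretches the H4K20me3 ratio over these intervals was 2.47 and that of H3K9me3 1.06.

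H3K4me3 appeared in KO at few of them. A KO H3K4me3 interval touched 31 of the 1483, or 2.09% (1.48% to 2.95%), beside 68.6% of all WT MINA intervals, a share that the choice against WT H3K4me3 sets. For the intervals on neither mark it was 3.04%. The 31 lay close to existing H3K4me3, with a median distance of 1.2 kb to a WT interval against 11.0 kb for the rest, and the overlap had a median of 1.4 kb and reached 7.4 kb. In 15 of the 31 the WT H3K4me3 interval lay within 1 kb. The 3 widest were 27.2 kb at chr16:57669201-57696400, the abutting 26.6 kb on chromosome 19 given above, and 26.6 kb at chr19:5988201-6014800. KO H3K4me3 covered 0.4, 0.6 and 0.8 kb of them, and WT H3K4me3 ended 0.8, 0 and 1.8 kb away.

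The widest interval shows the common pattern in full. It spanned 58.2 kb at chr17:27403801-27462000 and lay inside an H3K36me3 domain of 74.4 kb. All 58.2 kb were under H3K36me3 in WT and again in KO, no heterochromatin list touched it, WT H3K4me3 began 2.0 kb away and KO MINA 39.2 kb away. On chromosome 20, an interval of 41.0 kb at chr20:17590601-17631600 was likewise covered in full by H3K36me3 of both genotypes. Another on chromosome 20, of 39.8 kb at chr20:33563001-33602800, had 30.8 kb of H3K36me3 in WT and 27.8 kb in KO. An interval of 36.6 kb at chr10:81039001-81075600 and one of 35.8 kb at chr1:44039801-44075600 were also under H3K36me3 from end to end in both genotypes. Other members of the 10 widest reached beyond the mark. On chromosome 11, 23.8 of 37.4 kb at chr11:61471401-61508800 lay under H3K36me3 in both genotypes. On chromosome 14, the interval of 36.8 kb at chr14:93394201-93431000 had 28.0 kb of H3K36me3 in WT and 30.4 kb in KO, with the nearest WT H3K4me3 131.2 kb away.

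The remaining 3 of the 10 widest met H3K9me3. An interval of 45.2 kb at chr1:22163201-22208400, wholly under H3K36me3, had 0.4 kb of H3K9me3 in WT and 4.8 kb in KO. One of 41.8 kb at chr19:5116601-5158400 had 4.6 kb and 3.8 kb. The third, of 38.4 kb at chr19:18864801-18903200, had 5.4 kb and 4.0 kb of H3K9me3 and only 0.6 kb of H3K36me3 in WT and none in KO, so it belongs to the set by its edge alone. Of the 10, this was the only one with no KO H3K36me3.

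**Figure D4:**
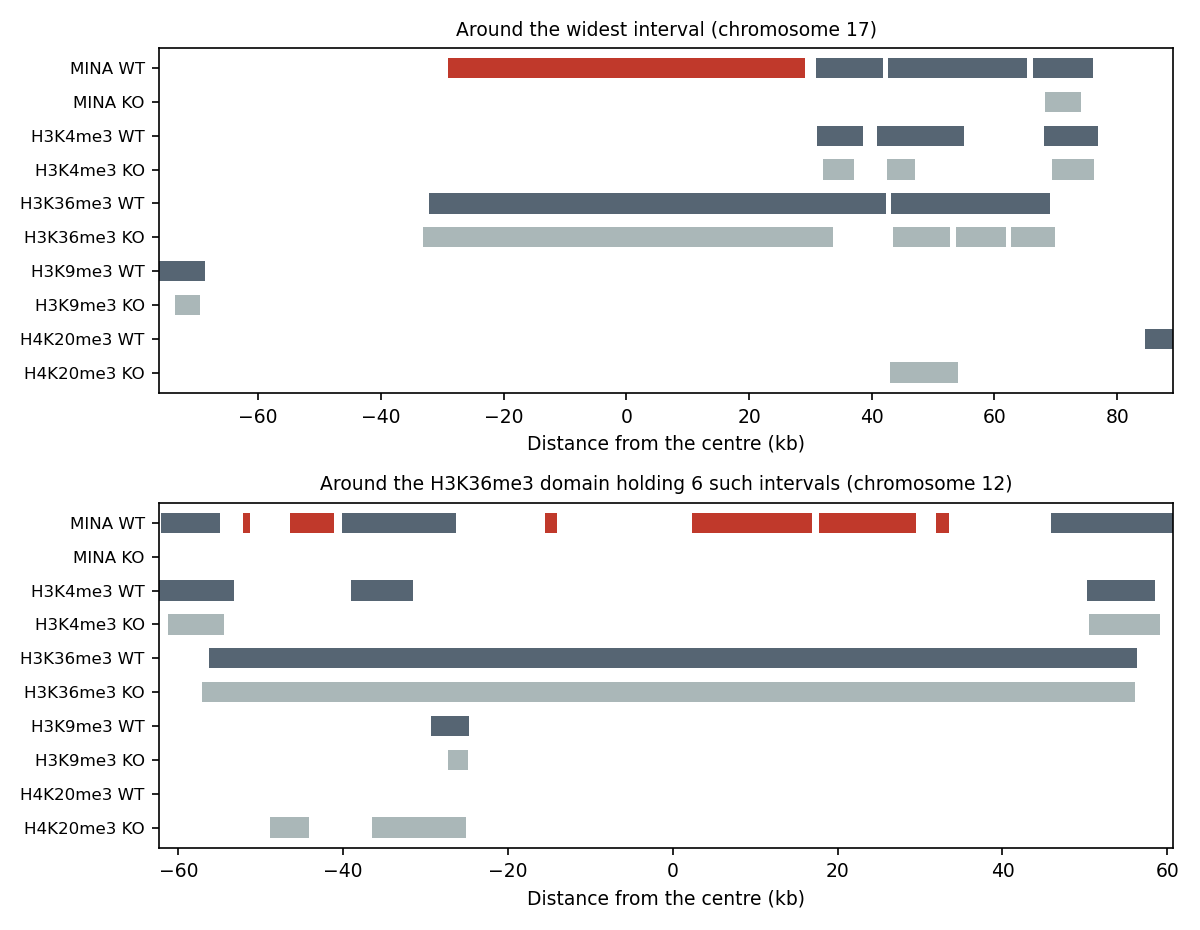
Intervals of all 10 lists (rows) against the distance in kb from the centre (x axis) of the widest H3K36me3-side interval (top) and of the H3K36me3 domain that holds the most of them (bottom); red bars are H3K36me3-side intervals, dark bars other WT intervals and light bars KO intervals. In both maps every red bar lies over H3K36me3 of WT and KO and none over a KO MINA bar.

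Some domains held a series of them. The domain with the most, of 112.6 kb at chr12:113660201-113772800, held 6 intervals of 0.8 to 14.6 kb, was under KO H3K36me3 for 112.4 kb and held no KO MINA at all. KO H4K20me3 covered 16.2 kb of it and WT H4K20me3 none. Of the 10 domains with 5 intervals each, the 4 widest were 194.2 kb at chr10:126653001-126847200, 149.0 kb at chr17:16946601-17095600, 136.0 kb at chr4:1874001-2010000 and 132.6 kb at chr21:47745601-47878200. Their intervals covered between 26.9% (chromosome 4) and 50.5% (chromosome 21) of the domain. KO H3K36me3 covered all 149.0 kb and all 132.6 kb of those on chromosomes 17 and 21, 192.6 kb of that on chromosome 10 and 135.2 kb of that on chromosome 4. KO MINA was present in 3 of the 5, over 2.8 to 4.8 kb.

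The 69 intervals with no KO H3K36me3 sat at the margin of the mark more often. Their median width was 4.8 kb, and 19 of them (27.5%) had less than 50% of their length under WT H3K36me3, against 5.37% of the 1414 others. The nearest KO H3K36me3 interval lay at a median of 10.8 kb. Besides the edge case on chromosome 19, the widest were 25.2 kb at chr21:47528601-47553800 and the one at chr11:74728401-74748400. The interval on chromosome 21 had 20.6 kb of H3K36me3 in WT and none in KO. H3K9me3 covered all 25.2 kb of it in both genotypes, and H4K20me3 covered 18.6 kb in WT and 24.0 kb in KO. That interval carried both an active and both silent marks in WT, and the active one was missing from the KO list. On chromosome 11 H3K36me3 covered 1.8 kb and H3K9me3 5.6 kb in WT, and neither was found there in KO.

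Intervals that met heterochromatin lists were somewhat wider and mostly still under H3K36me3. With overlap of 1 bp or more, a wider interval has more room to meet any list. The 109 on WT H3K9me3 had a median width of 8.2 kb, and 42 of them lay under it with at least 50% of their length. The 70 that met H4K20me3 in KO only had a median width of 8.3 kb, with a median overlap of 4.0 kb. The widest of these was 35.4 kb at chr10:134549601-134585000. It was wholly under H3K36me3 in both genotypes, had 22.8 kb of H3K9me3 in both and carried 15.8 kb of H4K20me3 in KO and none in WT. The next was 35.2 kb at chr4:872401-907600, again wholly under H3K36me3, with H3K9me3 over 7.8 kb in WT and 9.2 kb in KO and H4K20me3 over 10.6 kb in KO. The third, of 25.8 kb at chr5:1465801-1491600, had 6.2 kb and 4.8 kb of H3K9me3 and 4.6 kb of H4K20me3 in KO. These 3 widest all carried H3K9me3 in WT, but most of the 70 did not: 26 met WT H3K9me3, 3 met it in KO only and 41 in neither genotype.

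In the 29 intervals with H3K9me3 in KO only, it covered a median of 2.0 kb (0.4 to 6.2 kb) and a median of 33.3% of the width, with at least 50% in 11 of them. In the widest, 32.6 kb at chr10:126680401-126713000, it covered 3.2 kb. In the next, 16.2 kb at chr19:17212201-17228400, H3K9me3 and H4K20me3 each covered 3.2 kb in KO, and in the third, 15.2 kb at chr5:659801-675000, H3K9me3 covered 1.2 kb. Of the 43 intervals with WT H4K20me3 the widest after that on chromosome 21 was 18.4 kb at chr19:30163201-30181600, where H4K20me3 covered 4.4 kb in WT and 10.0 kb in KO. The next, 16.8 kb at chr3:10222001-10238800, went the other way, with 8.4 kb in WT and none in KO.

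**Figure D5:**
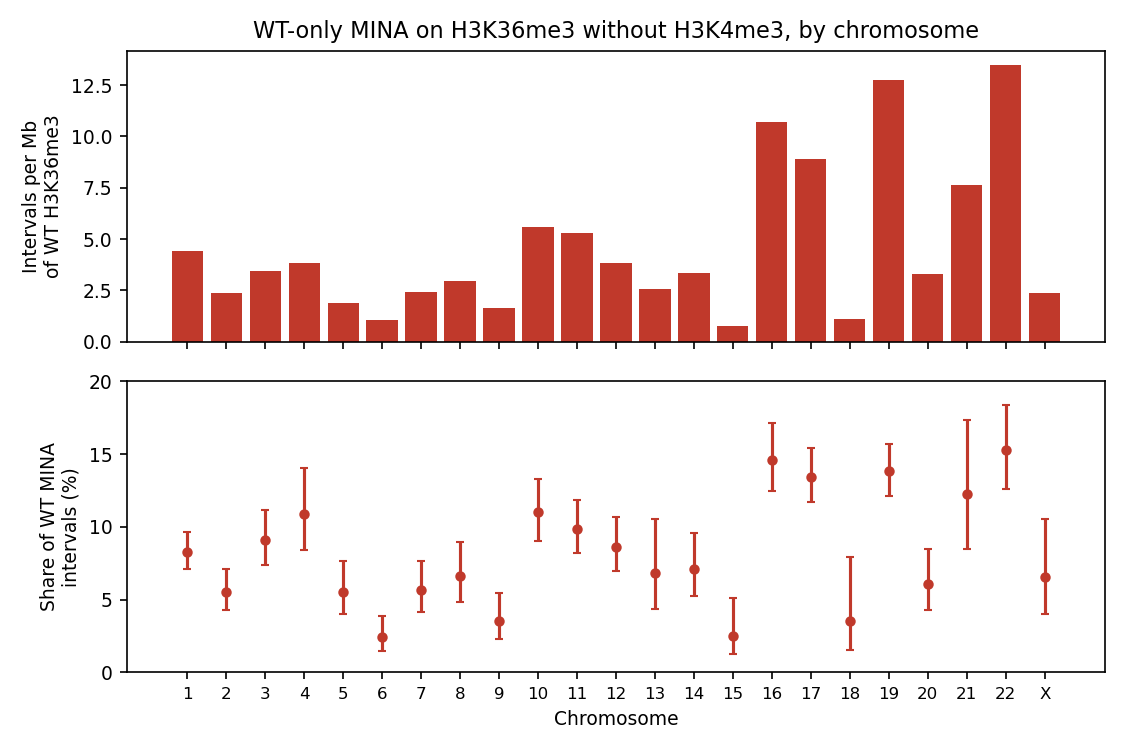
H3K36me3-side intervals per Mb of WT H3K36me3 (top) and as a percent of the WT MINA intervals of each chromosome with 95% Wilson intervals (bottom), by chromosome (x axis). Chromosomes 22, 19 and 16 stand highest by both measures, and chromosomes 15 and 6 lowest.

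Along the genome the intervals were frequent on chromosomes 16, 17, 19 and 22, and the order depended on the measure. They made up 15.3% (12.6% to 18.3%) of the WT MINA intervals on chromosome 22, 14.6% (12.4% to 17.1%) on chromosome 16, 13.8% (12.1% to 15.7%) on chromosome 19 and 13.4% (11.7% to 15.4%) on chromosome 17, and these Wilson intervals overlap. The lowest shares were 2.40% (1.48% to 3.87%) on chromosome 6, 2.53% (1.23% to 5.12%) on chromosome 15 and 3.50% (1.5% to 7.92%) on chromosome 18. Chromosome X had 15 intervals, or 6.58% (4.03% to 10.6%). Per Mb of WT H3K36me3, chromosome 22 held 13.5 intervals, chromosome 19 held 12.7, chromosome 16 held 10.7 and chromosome 17 held 8.88, against 0.761 on chromosome 15 and 1.06 on chromosome 6. By number chromosome 19 led with 196, followed by 17 with 174 and 1 with 152. By length they covered 11.3% of the WT H3K36me3 on chromosome 19, 8.37% on 22, 7.06% on 17 and 6.83% on 16. As a share of the WT-only MINA intervals, chromosomes 16 (22.6%), 19 (22.1%), 4 (20.7%) and 17 (20.2%) came before 22 (19.4%). Chromosomes 16, 17, 19 and 22 are known to be gene-dense.

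Some chromosomes hold long stretches where the KO over WT ratio of H3K4me3 length was raised. Cut from H3K4me3 alone in bins of 2 Mb, 11 such stretches on 8 chromosomes made up 700.0 Mb, on chromosomes 4, 5, 6, 7, 9, 14, 15 and X. Low shares of WT MINA were found on some of these (6, 9 and 15) but also on 18, which has no such stretch. On chromosome 4 the share was 10.9%, beside 9.07% of all chromosomes. Its H3K36me3-side intervals all lay below its raised stretch of 82 to 192 Mb, so that share does not describe the stretch. The raised stretches held 70 of the H3K36me3-side intervals (4.72%), 7.81% of the other WT-only MINA intervals and 23.1% of the shared ones. The choice leaves out intervals shared with KO, which were the most frequent there. Of the 70 inside, 98.6% (92.3% to 99.7%) lay on KO H3K36me3, and of the 1413 outside 95.2% (93.9% to 96.2%). The part of the raised stretches in the low values was not tested.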

How the data were processed

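ChIP-seq of MDA-MB-231 cells was deposited as 1 text file with an interval list for each of 10 libraries and 1 merged list, which was not used. Per the submitters' processing notes reads were aligned with BWA and intervals came from SICER version 1.1 on hg19. For window, gap, threshold, scaling and any role of the input, the sources used here give nothing. The deposited values are positions on a 200-bp grid, with no other unit, and a deeper library can give more and wider intervals. Coordinates are 1-based. Samples were matched to lists by antibody and genotype. Overlap meant 1 bp or more. The list lengths were counted with Python 3.11.15, numpy 2.4.6, pandas 2.3.3 and scipy 1.17.1, and the number of members from bedtools 2.31.1 was the same. Counting was checked on simulated lists. The raised stretches came from a 2-state hidden Markov model of the log2 KO over WT H3K4me3 length (1 kb added to each, change probability 0.001, bins under 20 kb neutral). Named intervals were the 10 widest, the 3 widest of each class by lists outside the choice, those closest to the limits, the 5 domains with most members, the 3 highest and 3 lowest chromosomes and X. Members, classes and comparison sets were chosen with earlier results of these data known. The direction of domains, the width classes, the mirrored choice and the H3K36me3 lengths without MINA were added after seeing the data.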

Additional observations from a re-analysis of the deposited data

How the results depend on the processing

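Shares were recomputed under 10 settings, 8 of them listed at the outset with earlier results known and 2 chosen after seeing the data (without chromosome 19, and also without KO H3K4me3). Merging WT MINA intervals within 5 kb before the choice left 763 members in place of 1483, with 94.1% on KO H3K36me3 and 1.31% on KO H3K4me3. Asking for at least 50% of the MINA interval under WT H3K36me3 gave 96.4% on KO H3K36me3. With no WT H3K4me3 within 5 kb, 0.840% lay on KO H3K4me3. When a list had to cover at least 50% of a member, the shares were 90.7% for KO H3K36me3, 0.270% for KO H3K4me3, 2.83% and 3.24% for H3K9me3 in WT and KO, and 1.82% and 3.98% for H4K20me3 in WT and KO, and 94.9% of the domains were found in KO under the same demand on the domain. The other 60 of 72 recomputed values stayed within the counting error of the main share, or within 1.5 times the main count. In all 11 versions, the main one included, members lay on each heterochromatin list less often than WT-only intervals on neither mark, with a smallest difference of -3.38 percentage points (H3K9me3 in KO). The versions are not separate checks, since most reuse the same members and several leave the comparison set unchanged. Members and that comparison set also differ in WT H3K36me3 by the choice. No paired analysis was possible because each antibody and genotype has 1 library and no result comes from a test. The lack of replicates, of scores and of a known depth limits all values.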
